A study of Mus musculus with 12 samples.

Results

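The enzymes that write and remove DNA methylation were followed in the mouse yolk sac, with the proteins that guide or read them: the methyltransferases Dnmt1, Dnmt3a and Dnmt3b, their cofactors Dnmt3l and Uhrf1, the oxidases Tet1 and Tet2, the DNA glycosylase Tdg, and Mbd3 of the NuRD complex. These 9 genes were chosen by symbol, current or older, from the names that the array gives its probes; where a gene had several probes, the brightest stands for it. They had 14 probes of the 41174 distinct transcript probes on the array, which named 27573 genes, and 8 of the 9 were bright enough to be tested among 13896 genes. Tet1 is listed under its older name Cxxc6 and Tet2 as E130014J05Rik.

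The yolk sac is the membrane around the embryo in which the first blood cells form. The 4 kinds of whole yolk sac on a CD1 background that were compared had 3 biological replicates each: homozygous Arid1a V1068G mutants at embryonic day 9.5 (E9.5), wild type at E9.5, mutants at E8.5 and wild type at E8.5. Arid1a, also called Baf250a, is the subunit of SWI/SNF, a chromatin remodeller, that binds DNA through its ARID domain, and the mutation replaces a residue of that domain. On each of the 12 arrays, yolk sac RNA carried the dye Cy5 and a common RNA of whole neonatal wild-type mice, mixed 129Sv and C57BL/6, carried Cy3. Whether 1 yolk sac or a pool made up a replicate is not stated in the labels, and p-values measure the spread between these replicates. A point mutation is not seen by an expression probe, so the genotype labels were not checked by the level of Arid1a.

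In mammals, Dnmt3a and Dnmt3b place methyl groups on unmethylated CpG sites, helped in germ cells by the inactive cofactor Dnmt3l. After each round of DNA replication Uhrf1 recognises the half-methylated site and brings in Dnmt1, which copies the mark to the new strand. Tet enzymes oxidise methylcytosine, and Tdg excises the later oxidation products so that base excision repair restores cytosine. Extraembryonic tissues, the yolk sac among them, are known for a lower level of DNA methylation than the embryo itself. Because whole yolk sac was measured, fewer cells of a type and less RNA per cell cannot be told apart in any value given here.

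The promoters of the 4 genes whose RNA differed between stages are shown first, because 3 of them fell and 1 rose. Each sequence is the 250 bases before the outermost annotated start (RefSeq, GRCm38.p6), written 5′ to 3′ on the strand of the gene, with every CpG in capitals.
Dnmt3b, chr2:153649199-153649448, plus strand: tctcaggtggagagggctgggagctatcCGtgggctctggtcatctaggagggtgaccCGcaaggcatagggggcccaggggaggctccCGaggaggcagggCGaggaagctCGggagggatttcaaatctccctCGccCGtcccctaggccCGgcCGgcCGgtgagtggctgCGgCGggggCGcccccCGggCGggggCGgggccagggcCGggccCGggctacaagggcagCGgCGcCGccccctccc
Uhrf1, chr17:56303087-56303336, plus strand: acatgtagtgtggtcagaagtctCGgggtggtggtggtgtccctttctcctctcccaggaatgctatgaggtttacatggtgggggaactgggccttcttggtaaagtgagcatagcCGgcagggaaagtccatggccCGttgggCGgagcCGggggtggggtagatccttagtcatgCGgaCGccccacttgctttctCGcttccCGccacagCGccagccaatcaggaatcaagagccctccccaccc
Tdg, chr10:82629588-82629837, plus strand: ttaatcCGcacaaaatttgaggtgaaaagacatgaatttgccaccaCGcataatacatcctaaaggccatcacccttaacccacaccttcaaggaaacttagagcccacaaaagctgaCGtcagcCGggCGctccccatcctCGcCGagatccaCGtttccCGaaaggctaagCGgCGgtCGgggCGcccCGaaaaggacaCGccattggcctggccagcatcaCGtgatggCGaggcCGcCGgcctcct
Dnmt3a, chr12:3806730-3806979, plus strand: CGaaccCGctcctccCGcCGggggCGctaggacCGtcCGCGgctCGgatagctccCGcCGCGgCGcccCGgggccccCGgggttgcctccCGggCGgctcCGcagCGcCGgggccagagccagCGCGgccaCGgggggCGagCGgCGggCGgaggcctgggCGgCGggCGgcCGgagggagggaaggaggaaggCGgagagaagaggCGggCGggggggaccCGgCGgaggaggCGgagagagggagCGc
The CpG sites in these stretches numbered 21 for Dnmt3b, 10 for Uhrf1, 19 for Tdg and 38 for Dnmt3a. In windows of 300 bases that run 50 bases past the start, the counts were 30, 12, 26 and 46, against a median of 7 over 32851 windows of all genes. The Uhrf1 window around its second start held 33. All 9 genes had a window, 16 in all, and those of Dnmt3l held the fewest CpG sites among genes here, with 6, 4 and 3 at its 3 starts, apart from 2 at the first start of Dnmt1.

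The words TTTCGCGC and TTTGGCGC, forms of the site of E2F factors that drive S-phase genes, were searched on both strands. They were picked after the promoter sequences had been seen. The words occurred in 2 of the 16 windows, at the third start of Dnmt1 and the second start of Uhrf1, and in 0.813% of all windows of the same length. Both words contain CpG, and these 2 windows held 33 CpG sites each, against a median of 7 over all windows. The share over all windows is therefore not a matched background, and no enrichment was tested. Capitals mark the word, or its reverse complement, in these stretches of 30 bases.
Uhrf1, chr17:56304117-56304146, plus strand: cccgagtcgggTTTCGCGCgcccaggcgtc
Dnmt1, chr9:20952824-20952853, minus strand: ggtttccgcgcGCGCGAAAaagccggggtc
Dnmt1, chr9:20952574-20952603, minus strand: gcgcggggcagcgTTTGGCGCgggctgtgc
Of the words in the Dnmt1 window, the first lies before the start and the other lies after it. A match is a description of the letters and not of binding.

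Between 46.7% and 50.1% of probes were well above background in Cy5 on an array. Precision is limited by 3 arrays a group, which gave a typical standard error (median over genes) of 0.0674 log2 units for 2 groups. Values below are log2 ratios of yolk sac over neonatal reference after loess normalization, and a difference was called where its adjusted p in limma was under 0.05. Dyes were not swapped, so a level against the reference can hold a dye effect, which a difference between groups does not share. The 3 replicate numbers were also 3 scans, each with 1 array of every group at a slide position that depended on its group; effects of position and of group cannot be told apart. Trophoblast transcripts were high on the third array of mutant E9.5, wild-type E9.5 and mutant E8.5, with a mean over 5 genes of 2.31, 2.24 and 2.99, against 0.539 to 1.01 on the other 9 arrays. The excess lay in the prolactin family genes Prl4a1, Prl3d1 and Prl7a1. Prl4a1 was 3.74, 4.31 and 5.70, against 0.26 to 1.53 on the other 9. Plac1 was 0.75 on mutant E9.5 replicate 3, below its 1.28 on mutant E8.5 replicate 1. Hand1 was 0.83, 0.98 and 1.18, against 0.59 to 1.13 on the other 9. Of the 9 trophoblast markers listed, 8 were on the array and Psg17, Tpbpa and Gcm1 were not well above background. A fit without these 3 arrays has 2 arrays in each of their groups. For a call lost in that fit, fewer arrays and fewer trophoblast transcripts cannot be told apart. Heart and neural transcripts of the embryo itself were high on wild-type E8.5 replicate 2, with a mean over 5 genes of -1.01, against -2.38 to -1.88 on the other arrays, while Sox2, Pax6 and Neurod1 were not well above background.

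Dnmt3b was the gene with the widest range among the group means, 1.49 on the log2 scale. Its log2 ratios were 1.25, 1.12 and 1.46 in mutant E9.5 yolk sacs, 0.87, 1.00 and 1.22 in wild-type E9.5, 2.43, 2.63 and 2.49 in mutant E8.5, and 2.08, 2.14 and 1.95 in wild-type E8.5. Every E9.5 array lay below every E8.5 array. Before normalization, the Cy5 signal of the probe was 166, 141 and 169 units in mutant E9.5, 125, 117 and 157 in wild-type E9.5, 428, 417 and 394 in mutant E8.5, and 300, 275 and 293 in wild-type E8.5. The signals stood in the same order of groups as the ratios, over a local background of 34 to 37.5 units.

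Dnmt3b fell between stages in both genotypes. In the mutant the difference of E9.5 minus E8.5 was -1.24 ± 0.10 (SE, 95% interval -1.45 to -1.03), 2.36-fold lower, with an adjusted p of 1.60e-06. In the wild type it was -1.03 ± 0.10 (-1.24 to -0.82), 2.04-fold lower, with an adjusted p of 8.82e-06. The difference held its sign in 3 of 3 pairs of replicate number in each genotype, and both calls held under every alternative processing that was run. Without the 3 arrays high in trophoblast transcripts the values were -1.35 in the mutant and -1.13 in the wild type. The reference signal in Cy3 was low for this probe, 53.2 to 72.4 units over a local background of 32.5 to 36.5, yet well above background on all 12 arrays. With Cy5 alone, which uses no reference, the falls were -1.34 in the mutant and -1.14 in the wild type.

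Dnmt3b was also higher in mutant yolk sacs at E8.5. It averaged 2.52 ± 0.10 in mutant and 2.06 ± 0.10 in wild-type E8.5 yolk sacs (SD, n = 3 each), and the groups did not overlap. The difference was 0.46 ± 0.10 (SE, interval 0.25 to 0.67), 1.37-fold, with an adjusted p of 0.0343. It was the only member called in that comparison (1 of 8), in which 1.44% of all 13896 genes were called. The call sat close to the threshold: it did not survive the removal of replicate 1 or 3 of wild-type E8.5 or of any single mutant E8.5 array (differences 0.40 to 0.50), nor the use of Feature Extraction processed signals (0.30, adjusted p = 0.487). It was also lost with the deposited table (0.30, 0.478), with median centring (0.37, 0.344), with an offset of 16 (0.42, 0.179) and with no filter (0.46, 0.0512). Without the 3 arrays high in trophoblast transcripts it was 0.47 (adjusted p = 0.0379), and without wild-type E8.5 replicate 2, high in embryo transcripts, 0.50 (0.0359). The mean over 7 markers of mesenchyme and mesothelium differed with genotype at this stage. It was -2.46 to -2.28 in mutant and -2.76 to -2.65 in wild-type E8.5 yolk sacs. Of these genes, Col1a1, Col3a1, Postn and Pdgfra were higher in mutants without overlap, while Acta2, Wt1 and Vim overlapped between genotypes. The mean over 6 of 6 parietal endoderm markers differed too, at -0.638 to -0.531 in mutant and -0.786 to -0.715 in wild-type E8.5. Among them Col4a2 and Snai1 overlapped between genotypes. Erythroid means overlapped but ran to 2.96 in mutant and 2.55 in wild-type E8.5. The part of these cells in the result was not tested.

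At E9.5 the values of Dnmt3b overlapped between genotypes, at 1.28 ± 0.17 in mutants and 1.03 ± 0.18 in wild type. The difference was 0.25 ± 0.10 (SE, interval 0.04 to 0.46) and missed the threshold, with an adjusted p of 0.304 and an unadjusted p of 0.0246. None of the 8 genes was called there, at a background of 1.99% of all genes, and Dnmt3b was the 1 of them with an unadjusted p under 0.05. Averaged over both stages, Dnmt3b was higher in the mutant by 0.35 ± 0.07 (1.28-fold, adjusted p = 0.00843). That made 1 of 8 called, against 4.68% of all genes. The average kept its call without any single array (0.31 to 0.40) and without the 3 arrays high in trophoblast transcripts (0.36). It lost it with processed signals (0.39, adjusted p = 0.105), the deposited table (0.39, 0.0987), median centring (0.29, 0.114) and an offset of 16 (0.36, 0.0508).

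The genotype difference of Dnmt3b was not shown to differ between stages. The interaction was -0.21 ± 0.14 (interval -0.51 to 0.09, adjusted p = 0.933), and with processed signals it was 0.19, of the opposite sign. For the interaction limma called 0 of 8 genes here and 0% of all genes (0 of 13896), while 795 genes had an unadjusted p under 0.05 and array weights called 7.

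**Figure D1:**
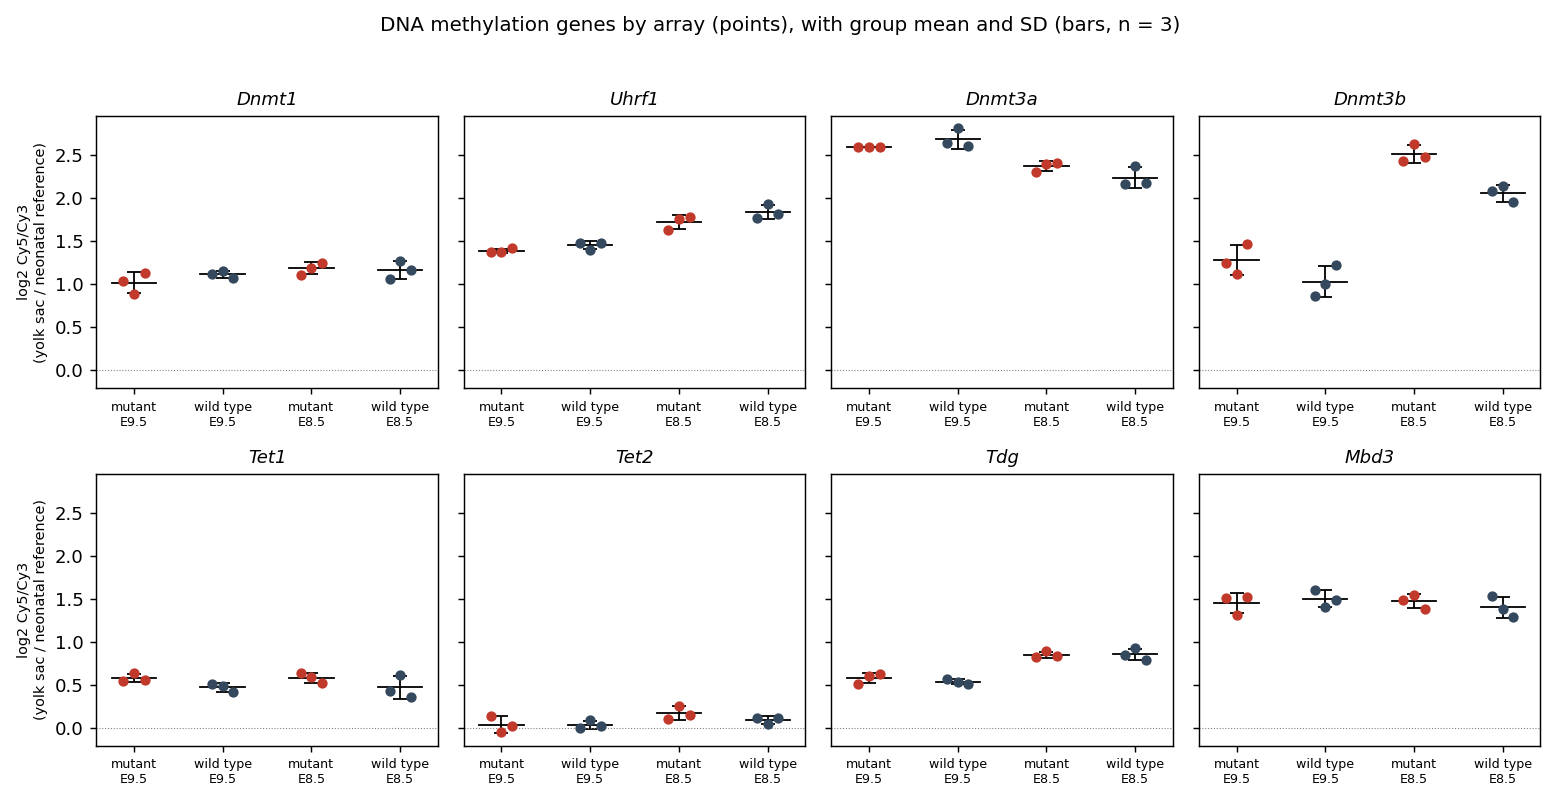
Log2 ratio of yolk sac (Cy5) over neonatal reference (Cy3) for the 8 genes tested, 1 point an array, with the group mean and SD (n = 3) as bars; mutants are red and wild type dark blue. Dnmt3b lies between 0.87 and 1.46 on the E9.5 arrays and between 1.95 and 2.63 on the E8.5 arrays, while Dnmt3a lies higher at E9.5.

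Dnmt3a, the other de novo methyltransferase, moved the other way. Its brightest probe gave 2.59, 2.60 and 2.60 in mutant E9.5, 2.64, 2.82 and 2.61 in wild-type E9.5, 2.30, 2.40 and 2.41 in mutant E8.5, and 2.16, 2.38 and 2.18 in wild-type E8.5 yolk sacs. All E9.5 arrays lay above all E8.5 arrays. In the mutant the rise was 0.22 ± 0.07 (interval 0.07 to 0.37), 1.17-fold, with an adjusted p of 0.0333, and in the wild type 0.45 ± 0.07 (0.30 to 0.60), 1.36-fold, with an adjusted p of 4.10e-04. The mutant call was lost without any single mutant array (0.19 to 0.24), and with processed signals (0.23, adjusted p = 0.0773), the deposited table (0.23, 0.0746), an offset of 16 (0.25, 0.0624), a prior with trend (0.22, 0.0592) or without the 3 arrays high in trophoblast transcripts (0.24, 0.133). The difference of the rises between genotypes, -0.23 ± 0.10, had an unadjusted p of 0.037 and an adjusted p of 0.852. Between genotypes, mutants were below wild type without overlap at E9.5, but the difference of -0.09 (interval -0.24 to 0.06) had an adjusted p of 0.691, and at E8.5 it was 0.13 (-0.02 to 0.28, 0.471).

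The rise of Dnmt3a was called by 1 probe of 3. Its second probe ranged from 1.76 to 2.16 and gave -0.04 in the mutant (adjusted p = 0.789) and 0.11 in the wild type (0.382) over all kept probes. The third probe, the dimmest, gave 0.12 in the mutant and 0.11 in the wild type, each with an adjusted p of 0.184. Its stages did not overlap in the mutant but did in the wild type. The second probe was 0.27 ± 0.08 higher in mutant than in wild-type E8.5 yolk sacs, without overlap of the groups, but its adjusted p was 0.166. The mean over the 3 probes in the mutant was 0.10 with an adjusted p of 0.195. In the wild type the rise kept its call with the mean over probes. Which transcripts each probe reports was not tested.

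Dnmt3l could not be tested. Its 1 probe gave Cy5 signals of 38.7 to 47.8 units against local backgrounds of 33 to 39, and it was well above background on 1 of 12 arrays, mutant E8.5 replicate 3. Germ cell and epiblast markers were likewise mostly unseen: Pou5f1, Nanog, Utf1, Dppa3 and Dppa4 were not well above background, which left Prdm1, 1 of 6.

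**Figure D2:**
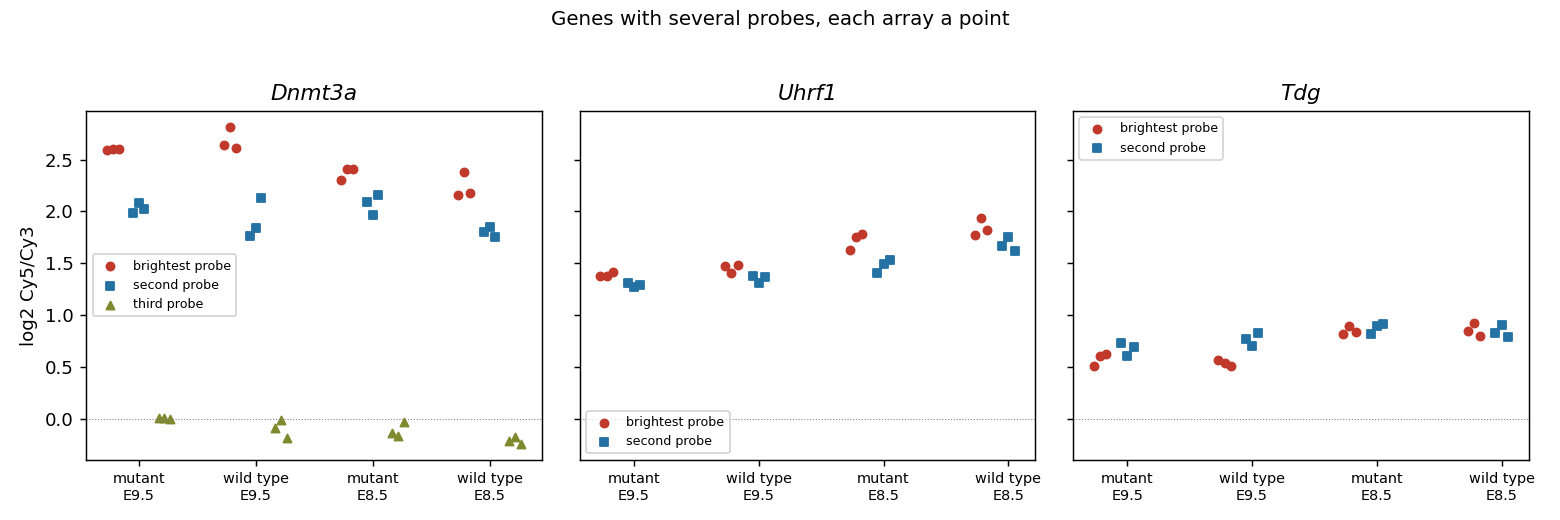
Log2 ratio of Cy5 over Cy3 for every probe of Dnmt3a, Uhrf1 and Tdg that passed the filter, 1 point an array, ordered from the brightest probe. The brightest Dnmt3a probe lies higher at E9.5, the second separates the stages in neither genotype and the third in the mutant only. Both Uhrf1 probes lie lower at E9.5.

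Uhrf1, which leads Dnmt1 to newly replicated DNA, fell between stages in both genotypes and by both of its probes. Its log2 ratios were 1.38, 1.38 and 1.42 in mutant E9.5, 1.48, 1.40 and 1.48 in wild-type E9.5, 1.63, 1.76 and 1.78 in mutant E8.5, and 1.77, 1.93 and 1.82 in wild-type E8.5 yolk sacs. The stages did not overlap in either genotype. The fall was -0.33 ± 0.06 in the mutant (1.26-fold lower, adjusted p = 0.00128) and -0.38 ± 0.06 in the wild type (1.31-fold lower, adjusted p = 3.97e-04). The second probe gave -0.18 (adjusted p = 0.0293) in the mutant and -0.32 (8.31e-04) in the wild type. With median centring of each array neither call stood, at -0.11 in the mutant (adjusted p = 0.548) and -0.22 in the wild type (0.274), where the median of all genes moved up by 0.142 and 0.106.

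Between genotypes the brightest Uhrf1 probe was not called. Its difference was -0.06 (interval -0.19 to 0.06, adjusted p = 0.766) at E9.5 and -0.12 (-0.25 to 0.01, 0.44) at E8.5. The second probe at E8.5 gave 1.40, 1.49 and 1.53 in mutants and 1.66, 1.75 and 1.61 in wild type. These values did not overlap, and their difference of -0.20 ± 0.06 had an adjusted p of 0.105.

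Dnmt1, the maintenance methyltransferase, was called in none of the 6 comparisons. It averaged 1.02 ± 0.12 in mutant E9.5, 1.11 ± 0.04 in wild-type E9.5, 1.19 ± 0.07 in mutant E8.5 and 1.17 ± 0.11 in wild-type E8.5 yolk sacs (SD, n = 3 each). The values overlapped between genotypes at each stage and between stages in each genotype. Its difference in the mutant, E9.5 minus E8.5, was -0.17 (interval -0.32 to -0.01, adjusted p = 0.114), and array weights took it past the threshold (-0.19, adjusted p = 0.0491). In the wild type the interval of the stage difference was -0.20 to 0.10.

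Of the erasers, Tdg was the one that changed. Its log2 ratios were 0.51, 0.60 and 0.63 in mutant E9.5, 0.57, 0.54 and 0.51 in wild-type E9.5, 0.82, 0.89 and 0.84 in mutant E8.5, and 0.84, 0.93 and 0.80 in wild-type E8.5 yolk sacs. The stages did not overlap, whereas the genotypes did at each stage. The fall was -0.27 ± 0.05 in the mutant (1.20-fold lower, adjusted p = 0.0029) and -0.32 ± 0.05 in the wild type (1.25-fold lower, 8.30e-04). Median centring ended both calls (-0.05 in the mutant, adjusted p = 0.806, and -0.15 in the wild type, 0.488). The second Tdg probe, which the files place elsewhere on chromosome 10, gave -0.20 in the mutant (adjusted p = 0.0267) and -0.07 in the wild type (0.417).

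Tet1 was seen at a low signal, 63 to 83 units in Cy5, and was called nowhere. It averaged 0.58 ± 0.05 in mutant E9.5, 0.47 ± 0.05 in wild-type E9.5, 0.58 ± 0.06 in mutant E8.5 and 0.47 ± 0.13 in wild-type E8.5 yolk sacs. At E9.5 the genotypes did not overlap, with 0.54, 0.64 and 0.56 in mutants and 0.51, 0.48 and 0.42 in wild type, but the difference of 0.11 (interval -0.03 to 0.25) had an adjusted p of 0.591. Averaged over stages it was also 0.11 (0.01 to 0.21, adjusted p = 0.239). The stage differences had intervals of -0.15 to 0.14 in the mutant and -0.14 to 0.14 in the wild type.

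Tet2 lay at the limit of detection. Its better probe was well above background on 9 of 12 arrays, with signals of 41.8 to 47.8 units, and passed the filter through the mutant E8.5 and wild-type E9.5 arrays. The other probe was well above background on 0 of 12 arrays. The ratios ran from -0.05 to 0.26, no comparison was called, and changes of so dim a probe are compressed by the offset added to the signals.

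Mbd3, a NuRD subunit that resembles the methyl-CpG binding proteins, stayed within its spread. It averaged 1.45 ± 0.12 in mutant E9.5, 1.50 ± 0.10 in wild-type E9.5, 1.47 ± 0.08 in mutant E8.5 and 1.40 ± 0.12 in wild-type E8.5 yolk sacs. The values overlapped between genotypes at each stage and between stages in each genotype. The intervals were -0.22 to 0.11 for mutant minus wild type at E9.5, -0.10 to 0.24 at E8.5, -0.19 to 0.14 for the stages in the mutant and -0.07 to 0.27 in the wild type.

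Counted together by their brightest probes, 4 of the 8 genes were called between stages in each genotype, the same 4. Of these Dnmt3a rose and Dnmt3b, Uhrf1 and Tdg fell. The rise of Dnmt3a was called by its brightest probe only, and the second Tdg probe was not called in the wild type (-0.07, adjusted p = 0.417). Among all genes 21.6% were called in the mutant, 11% that rose and 10.6% that fell, and 23.8% in the wild type, 12.8% that rose and 11% that fell. The median difference of the 8 genes was -0.15 in the mutant and -0.05 in the wild type, against -0.008 and -0.01 for all genes. With median centring 2 of the 8 genes were called in each genotype.

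**Figure D3:**
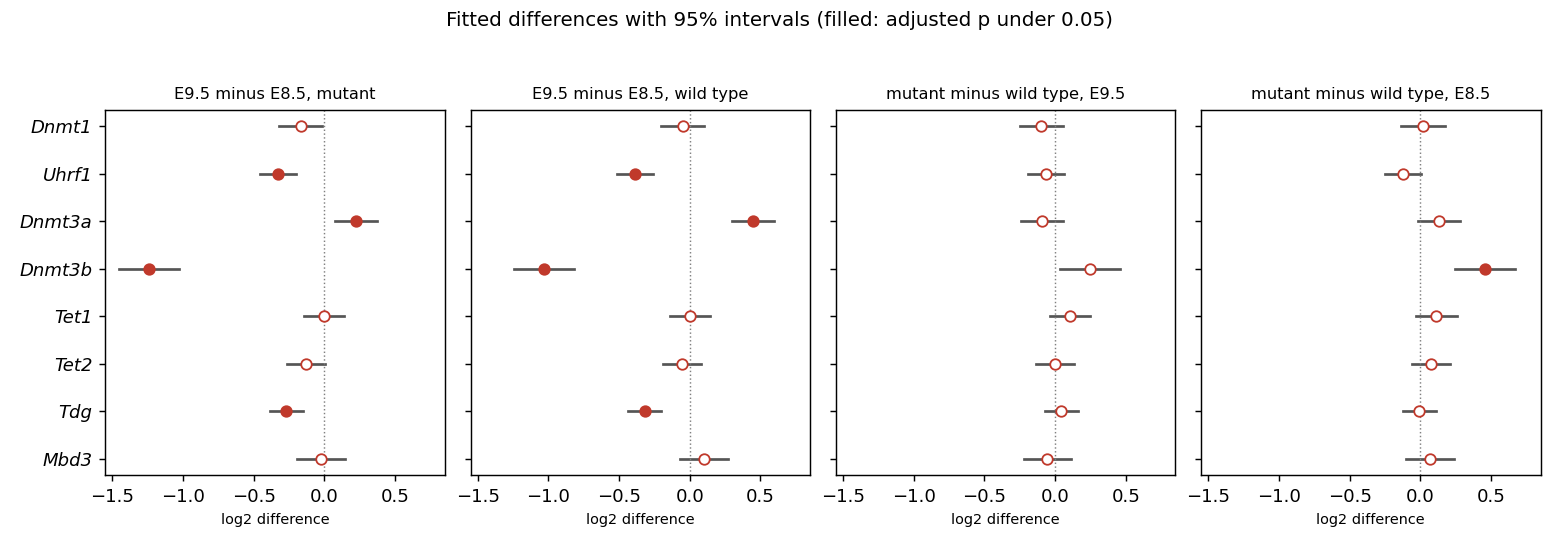
Fitted log2 differences with 95% intervals for the 8 genes in 4 comparisons; filled points have an adjusted p under 0.05. Dnmt3b stands farthest from 0 between stages, at -1.24 in the mutant and -1.03 in the wild type, and is the filled point of the genotype comparison at E8.5.

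**Figure D4:**
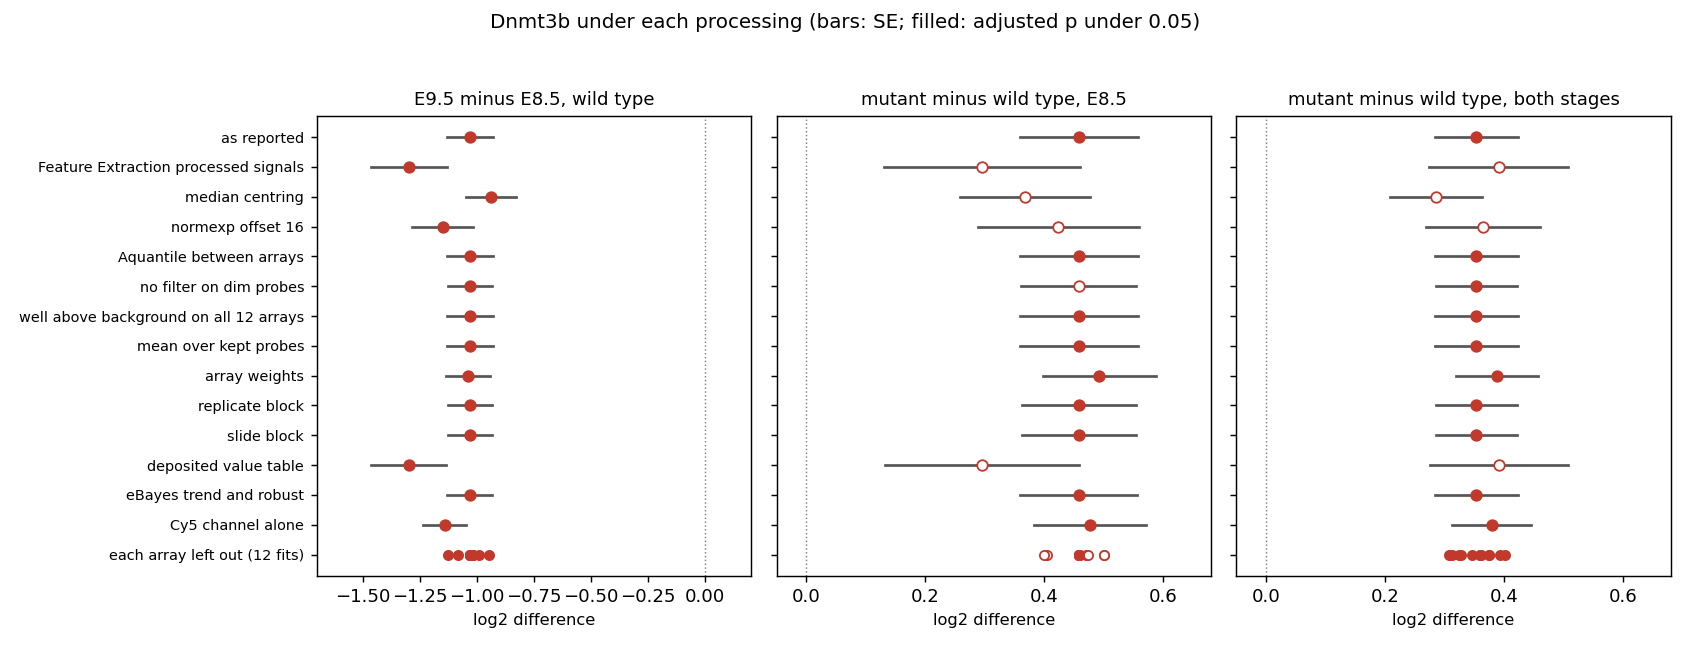
The Dnmt3b difference as reported and under the settings named on the axis, with the standard error as a bar and the fits that leave out 1 array as points in the lowest row; filled points have an adjusted p under 0.05. The stage fall in the wild type is filled throughout, the genotype difference at E8.5 lies between 0.30 and 0.50 and is often open, and the average over both stages is open in 4 rows.

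The profiles most like each of the 4 stage-dependent genes over the 12 arrays were found by Pearson correlation among genes with an official symbol. They are given as a description of arrays that share stage and scan. For Dnmt3b they were Sfswap (r = 0.98), Phactr4 (0.98) and Ewsr1 (0.98). For Uhrf1 they were Prdx6, Srsf2 and Ccne1, each at 0.98. Those of Tdg were Nif3l1 (0.98), Sf3b4 (0.98) and Nop2 (0.97), and those of Dnmt3a were Dhdds (0.97), Itm2c (0.96) and Itih2 (0.95).

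Genes around these enzymes were read in 8 lists with 121 genes, of which 104 were tested. Between stages 10 of them rose and 22 fell in the mutant, and 13 rose and 24 fell in the wild type. Among all genes tested, 11% rose and 10.6% fell in the mutant, and 12.8% rose and 11% fell in the wild type. The 104 genes thus rose at about the share of all genes and fell at a larger share in each genotype. No enrichment was tested. Each gene's call was also read under 14 other settings, single arrays left out not among them (13 for Peg10). Genes of DNA replication and S phase made up the largest part of the falls: 12 of 25 fell in the mutant and 11 of 25 in the wild type and none rose, while with median centring 0 rose and 1 fell in the mutant and 1 rose and 1 fell in the wild type. The median of the list was -0.17 in the mutant and -0.18 in the wild type. Cdc6, which loads the replicative helicase, fell by 0.48 in the mutant and by 0.49 in the wild type (adjusted p = 2.11e-04 and 1.60e-04), the helicase subunit Mcm3 by 0.46 and 0.39, and Mcm4 by 0.41 and 0.46. Cyclin E1 (Ccne1) fell by 0.32 in the mutant and by 0.33 in the wild type. With median centring the list's median was 0.02 in the mutant and -0.03 in the wild type. Without the 3 arrays high in trophoblast transcripts, 7 fell in the mutant and 9 in the wild type.

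Of 12 partners that maintain or target methylation, 3 fell and 0 rose in the mutant and 5 fell and 1 rose in the wild type, while with median centring 0 fell and 1 rose in each. Usp7, the deubiquitinase that binds Dnmt1 and Uhrf1, fell by 0.34 in the mutant and by 0.32 in the wild type. Ctcf, the insulator protein, fell by 0.24 in the mutant and by 0.34 in the wild type. Ehmt2, a histone H3 lysine methyltransferase, rose by 0.32 in the wild type, and Setd2, which methylates histone H3 in gene bodies, fell by 0.20 in the mutant and by 0.26 in the wild type. When the 3 arrays high in trophoblast transcripts were left out, 1 fell in the mutant and 4 in the wild type, and Ctcf and Setd2 lost their mutant calls. Setd2 in the mutant kept its call in 11 of 14 settings, and its sign turned in 1 (0.01). Usp7 kept its wild-type call in 10 of 14. The median of the list was -0.12 in the mutant and -0.17 in the wild type, and with median centring it was 0.07 and -0.04.

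In the NuRD list, which surrounds Mbd3, Mta3 fell by 0.36 in the mutant and by 0.22 in the wild type, Mta2 by 0.22 and by 0.24, and Hdac2, a histone deacetylase, by 0.18 in the wild type, calls that median centring ended. These were 2 of 11 genes in the mutant and 3 in the wild type, and without the 3 arrays high in trophoblast transcripts 1 fell in each, with Mta2 lost in both. In the wild type Mta3 kept its call in 8 of 14 settings and Hdac2 in 9 of 14. Among 16 genes of demethylation and base excision, Idh2, a mitochondrial isocitrate dehydrogenase whose product 2-oxoglutarate is used by Tet enzymes, rose by 0.54 in the mutant and by 0.46 in the wild type, and was called in 14 of 14 other settings in each. The uracil glycosylase Ung and the ligase Lig3 fell in both genotypes, by 0.21 and by 0.23 in the mutant and by 0.27 and by 0.30 in the wild type, calls that median centring ended. The mutant call of Ung was also lost without the 3 arrays high in trophoblast transcripts, and that of Lig3 with processed signals and the deposited table. Gadd45g fell by 0.23 in the mutant, a call kept in 9 of 14 settings with differences of -0.26 to -0.005, and lost without those 3 arrays among others.

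Of 14 enzymes that supply the methyl donor, Mat2a, which makes S-adenosylmethionine, fell by 0.36 in the mutant and by 0.50 in the wild type, while its regulatory subunit Mat2b rose by 0.25 in the mutant and by 0.33 in the wild type. Mtr, which remethylates homocysteine to methionine, rose by 0.28 in the wild type, a call kept in 8 of 14 settings (0.18 to 0.80) and lost without the 3 arrays high in trophoblast transcripts. None of the mutant calls in this list stood with median centring or without the 3 arrays high in trophoblast transcripts, a fit with fewer mutant arrays. Of the 5 methyl-CpG readers, Zbtb4 rose by 0.27 in the mutant and by 0.33 in the wild type, and its mutant call was lost without those 3 arrays. Of 14 germline genes that promoter methylation is known to silence, 4 were measured, with a median difference of 0.02 in the mutant and 0.004 in the wild type.

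Imprinted genes, whose expression depends on methylation inherited from a parent, were among the lists with more rises than falls: 6 rose and 1 fell of 17 in the mutant, and 8 rose and 2 fell in the wild type. Among all genes 11% rose in the mutant and 12.8% in the wild type. With median centring 5 imprinted genes rose in the mutant and 7 in the wild type, and none fell. That setting moved the median of all genes up by 0.142 in the mutant and 0.106 in the wild type. Of its calls over all genes, 95.6% and 94.7% were rises, so the lack of falls is not particular to this list. Plagl1, a zinc finger factor, rose by 0.98 in the mutant and by 1.28 in the wild type. The cell cycle inhibitor Cdkn1c rose by 0.82 in the mutant and by 0.88 in the wild type. Dlk1 rose by 0.32 in the mutant and by 0.46 in the wild type, and Snrpn fell by 0.32 and by 0.28. Leaving out the 3 arrays high in trophoblast transcripts, 2 rose and 1 fell in the mutant, and 7 rose and 2 fell in the wild type. Dlk1 lost its mutant call there and with median centring. Plagl1 and Cdkn1c were called in 14 of 14 other settings in each genotype.

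Between genotypes 2 of the 104 genes were called at E9.5, 1 at E8.5 and 4 on average, near the shares of all genes (1.99%, 1.44% and 4.68%). At E9.5, Bhmt, an enzyme that remethylates homocysteine, was higher in mutants by 0.31 ± 0.06 (adjusted p = 0.0147) and Peg10, an imprinted gene needed in the placenta, was lower, with a difference of -0.35 ± 0.08 (0.0412). At E8.5, Dlk1 was higher in mutants by 0.34 ± 0.08 (0.0437). Averaged over stages Bhmt (0.27) and Dlk1 (0.27) were higher in mutants, and Idh2 (-0.21) and Mest (-0.31) were lower. At E9.5 Bhmt kept its call in 9 of 14 other settings and Peg10 in 7 of 13, and at E8.5 Dlk1 kept it in 6 of 14, each lost without the 3 arrays high in trophoblast transcripts. Averaged over stages, Bhmt and Idh2 kept theirs in 13 of 14, Dlk1 in 10 of 14 and Mest in 8 of 14.

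**Figure D5:**
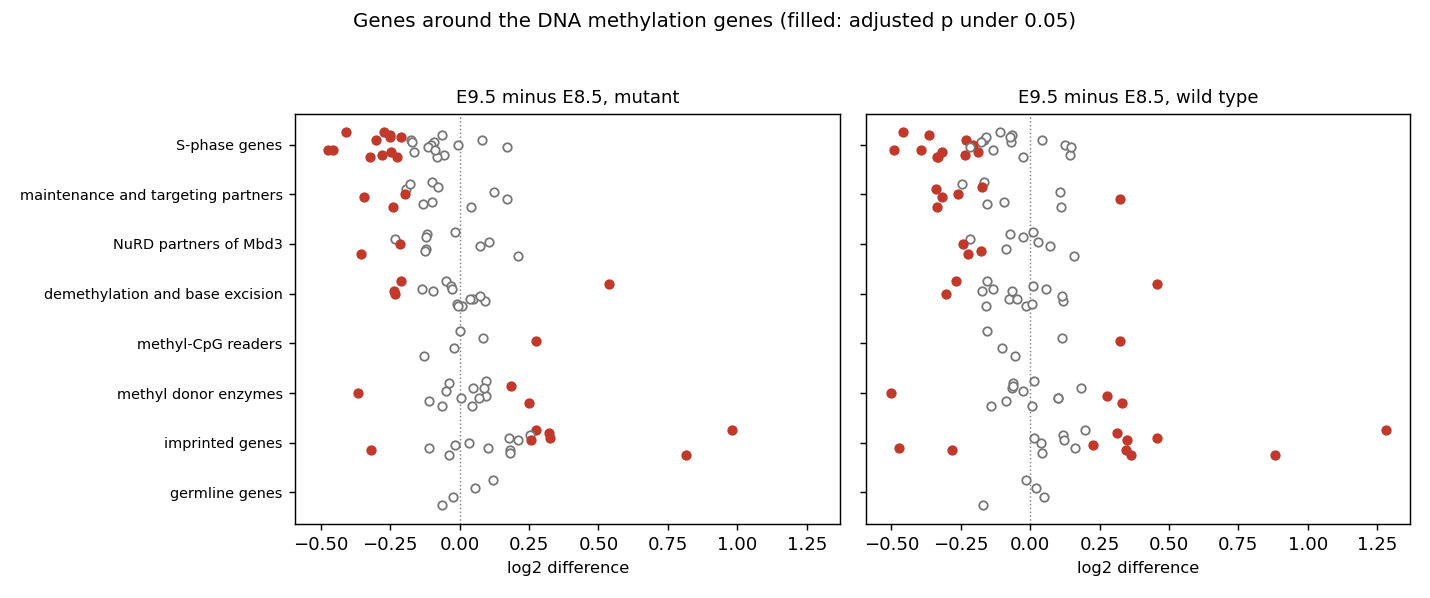
Log2 difference of E9.5 minus E8.5 for the tested genes of 8 lists, the mutant on the left and the wild type on the right, 1 point a gene; filled points have an adjusted p under 0.05. The filled S-phase genes all lie below 0, and Plagl1 is the imprinted gene farthest above it, at 0.98 in the mutant and 1.28 in the wild type.

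Markers of yolk sac cell types were detected, and so were some markers of other tissues. All 10 markers of visceral endoderm, all 8 of primitive erythroid cells, all 7 of endothelium, all 7 of mesenchyme and mesothelium and all 6 of parietal endoderm were well above background. So were 5 of 8 heart and neural markers and 4 of 6 markers of decidua and maternal leukocytes, Pgr and Ptprc being the exceptions in the latter. Of those 4, Prl8a2 ran from 0.69 to 3.53, both in mutant E8.5 yolk sacs, while Dcn, Cd52 and Lyz2 lay below 0 wherever measured. A share of maternal tissue in the samples was not tested. Between stages, the mean over the visceral endoderm markers was 2.23 to 2.47 in mutant E9.5 and 2.37 to 2.47 in wild-type E9.5, against 1.91 to 1.94 in mutant E8.5 and 1.75 to 2.03 in wild-type E8.5 yolk sacs. The mesenchyme mean was -2.14 to -1.99 in mutant E9.5 and -2.19 to -2.07 in wild-type E9.5, against -2.46 to -2.28 in mutant E8.5 and -2.76 to -2.65 in wild-type E8.5. The parietal endoderm mean was -0.563 to -0.373 in mutant E9.5 and -0.561 to -0.473 in wild-type E9.5, against -0.638 to -0.531 in mutant E8.5 and -0.786 to -0.715 in wild-type E8.5, with overlap in the mutant. The visceral endoderm and mesenchyme means in both genotypes, and the parietal endoderm mean in the wild type, thus stood higher at E9.5. The brightest Dnmt3a probe moved in the same direction, and Dnmt3b, Uhrf1 and Tdg in the opposite direction. Single markers did not all follow their mean. Afp, Apoa1, Apoa4, Apob and Rbp4 rose in both genotypes without overlap of the stages, as did Col1a1, Col3a1 and Postn. Ttr, Amn, Cubn, Acta2 and Vim overlapped between stages in both genotypes, and Hnf4a and Foxa2 in the mutant. Pdgfra fell in both genotypes and Wt1 in the mutant, each without overlap. Lama1 of parietal endoderm overlapped in the wild type. The part of these cells in these results was not tested. Erythroid means overlapped between stages in the mutant and stood slightly higher at E9.5 in the wild type, at 2.45 to 2.87 in mutant E9.5, 2.57 to 2.60 in wild-type E9.5, 2.51 to 2.96 in mutant E8.5 and 2.44 to 2.55 in wild-type E8.5. These means hide opposite movements. In the wild type Klf1 was 2.44 to 2.66 at E8.5 and 2.01 to 2.04 at E9.5, and Gata1 was 1.15 to 1.18 and 0.79 to 0.81. Hbb-y rose there from 5.70 to 5.99 at E8.5 to 6.82 to 6.90 at E9.5, and Hba-x and Slc4a1 rose too. Klf1 and Gata1 also fell in the mutant.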

How the data were processed

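RNA of 12 whole yolk sac samples was measured on Agilent 2-colour arrays. The files deposited by the authors hold mean and local background intensity of each channel for every spot, not normalized, with flags of 0 or 1 (other values) for outliers, saturation and spots well above background. They also hold, per the file headers (Feature Extraction 9.5.1.1), a log10 ratio of processed Cy5 over Cy3 signals. A deposited table holds log2 ratios of 19007 transcript probes and 26 controls. Its columns had medians of -0.006 to 0.004 and correlated (lowest r = 0.9997) with the processed per-array ratios centred on each probe's median, and its differences between groups had the same sign and size. How it was filtered is not stated in the labels or headers.

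In R 4.3.3 with limma 3.58.1 and data.table (version 1.17.8), background was corrected by normexp (offset 50) and ratios were normalized by loess within each array, with the 1639 control spots of 45018 at weight 0. Outlier spots, and spots more than 20 units below local background, were set to missing, which left 40 values missing among the 13896 genes tested. The second rule follows a failure of normexp on mutant E9.5 replicate 3 that had been seen. A probe was kept if 1 group or more had it well above background in Cy5 on each of its 3 arrays (20065 probes), and a gene was represented by its brightest kept probe. Probe names were updated by accession (23374), symbol (6733) or older symbol (2919), and 8148 were left as in the files. Of the 13896 genes, 12297 had an official symbol.

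Limma was fitted to 4 group means (8 residual and 6.22 prior degrees of freedom) with Benjamini-Hochberg adjustment over all genes in each of 6 contrasts. The fit was run on simulated data whose noise was independent between arrays. That run held no effect of scan, so it cannot speak to arrays that share one. The genes, lists and rules were chosen with earlier results of these data known. All 9 genes are named. Of each list the genes with the smallest adjusted p are named, up to 4 a contrast (1 result is not reported here), and 3 most similar profiles for each gene called. Replicate numbers pair arrays of 1 scan: deviations from group means correlated at -0.007 to 0.42 (median 0.23) in 18 pairs of equal number, 16 of them over 0.1, and at a median of -0.10 in 36 other pairs. The array headers give 2 slide identifiers, with replicates 2 and 3 sharing 1 although their scans differ. Other normalizations, filters, probes, blocks and sets of arrays were tried. Cy5 alone, the other probes and the removal of 3 arrays high in trophoblast transcripts were added after the data had been seen.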

Additional observations from a re-analysis of the deposited data

How the results depend on the processing

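The Dnmt3b falls between stages kept direction and call under every alternative run (-1.35 to -1.10 in the mutant, -1.30 to -0.94 in the wild type). The number of the 8 genes called at E8.5 between genotypes was 0 with processed signals, the deposited table, median centring, an offset of 16 and no filter, and 0 to 1 with 1 array left out; averaged over stages it was 0 with the first 4 of these; between stages it was 2 in each genotype with median centring. The Dnmt3b difference at E8.5 was 0.40 to 0.50 with 1 array left out, and the mutant Dnmt3a rise 0.19 to 0.24. Dnmt3a, Uhrf1, Tdg and Dnmt1 calls that changed are given with their values in the report. With the replicate block, the Dnmt3b difference at E8.5 had an adjusted p of 0.026 (0.00729 averaged over stages), and no call of the 8 genes changed. With the 2 slide identifiers of the headers as a block, that adjusted p was 0.0302 at E8.5 and 0.00782 averaged over stages, and again no call of the 8 genes changed. A fit on only the groups compared has no form for the average or the interaction.

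Over all genes, median centring called 10 at E8.5 and 26 at E9.5 between genotypes, 158 for the average, 1756 for stage in the mutant and 1458 in the wild type, against 200, 277, 651, 2998 and 3308. Of its calls 20%, 19.2%, 14.6%, 95.6% and 94.7% rose, against 49.5%, 45.8%, 50.2%, 50.8% and 53.9%. The E8.5 count was 439 with array weights, 123 on only the groups compared and 86 without the 3 arrays high in trophoblast transcripts. The E9.5 count was 173 with processed signals and 181 with the deposited table. Without the 3 arrays high in trophoblast transcripts, which left fewer arrays in 3 groups, 124 were called at E9.5, 322 for the average and 1347 for stage in the mutant. With 1 array left out the counts were 93 to 222 at E8.5, 145 to 369 at E9.5 and 0 to 5 for the interaction, which the replicate block took to 1. The cause was not tested. Dim probes such as Tet2 and Dnmt3l lay near background, so small changes were not detectable.

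The sign of differences that were not called also turned. With median centring, Dnmt1 was -0.10 and Mbd3 -0.027 at E8.5 between genotypes, Tdg -0.036 at E9.5, and Dnmt3a -0.0697, Tdg -0.086 and Mbd3 -0.067 on average; between stages Dnmt1 was 0.026, Tet1 0.077 and Mbd3 0.15 in the mutant, and Dnmt1 0.10 in the wild type. With Cy5 alone, Dnmt1 was -0.033 and Tdg 0.033 at E8.5, Tet2 -0.055 and Mbd3 0.057 at E9.5, Tet2 -0.019 on average, Tet1 0.11 between stages in the mutant and Mbd3 -0.0021 in the wild type. Without the 3 arrays high in trophoblast transcripts, Dnmt1 was -0.011 and Tdg 6.4e-04 at E8.5 and Dnmt3a -0.0081 on average. With the mean over probes, Tdg was 0.016 at E8.5 and -0.022 at E9.5 (-0.0033 on average) and Dnmt3a 0.042 at E9.5. Array weights gave Tdg 0.019 at E8.5, Mbd3 -0.017 on average and Tet1 0.013 between stages in the mutant. Processed signals and the deposited table each gave Dnmt3a -0.0032 and Mbd3 -0.068 on average, a Dnmt3b interaction of 0.19 and Tet1 -0.084 between stages in the wild type. An offset of 16 gave Mbd3 -0.023 on average and Tet1 -0.0297 in the wild type. The second Tdg probe gave 0.038 at E8.5, -0.088 at E9.5 and -0.025 on average, and the other Dnmt3a probes 0.12 and 0.10 at E9.5, with -0.041 between stages in the mutant for the second. With 1 array left out, Dnmt1 ran from -0.033 to 0.076 and Tdg from -0.036 to 0.029 at E8.5, Mbd3 from -0.099 to 0.014 and Tet2 from -0.054 to 0.044 at E9.5, and Mbd3 from -0.019 to 0.043 on average. Between stages in the mutant, Mbd3 ran from -0.0700 to 0.042 and Tet1 from -0.034 to 0.023, and in the wild type Dnmt1 from -0.10 to 0.0046 and Tet1 from -0.055 to 0.075.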
